A study of Mus musculus with 2 samples.

Results

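The fibroblast growth factor (FGF) receptors and ligands were followed across the tibial fracture calluses of 1 control mouse and 1 Nf1Postn littermate. The rule took the 9 genes Fgfr1, Fgfr2, Fgfr3, Fgfr4, Fgfrl1, Fgf1, Fgf2, Fgf7 and Fgf18 by their symbols, that is 5 receptors and 4 ligands out of the 19430 genes that the count tables name, and all 9 were found. Measured values had no part in the choice of spots, and each gene was described by section, by genotype and by position in the tissue.

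The control mouse was Nf1 +/fl without Postn-cre, and the mutant was Postn-cre;Nf1 flox/-, here called Nf1Postn. Each mouse thus carried a floxed Nf1 allele, opposite a wild-type allele in the control and opposite a null allele in the mutant. Cre was driven by the promoter of periostin, a matrix protein of the periosteum that is also made widely in the callus after injury, so tissue outside this lineage kept the floxed allele unrecombined. Both female mice were 8 weeks old at surgery, had a distal tibia fracture held by an intramedullary pin, and were sampled on day 10. The calluses shared 1 paraffin block, decalcified in 14% EDTA for 3 days, and 2 sections of that block were assayed. The sections are numbered as biological replicates in the labels but come from the same 2 calluses, so they are called section 1 and section 2 and a genotype is always 1 mouse.

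FGF receptors are tyrosine kinases that bind an FGF together with heparan sulfate and signal through the adaptor Frs2 to Ras and MAPK. Neurofibromin, the product of Nf1, is a GTPase activating protein that switches Ras off downstream of such receptors. In the skeleton, Fgfr1 is used widely in mesenchyme and in bone, Fgfr2 in osteoprogenitors, and Fgfr3 in chondrocytes, where its activating mutations cause achondroplasia. Fgfr4 is best known from liver and from muscle progenitors. Fgfrl1 binds FGFs but has no kinase domain. Among the ligands, Fgf18 from the perichondrium acts on growth plate cartilage through Fgfr3, Fgf7 is a mesenchymal ligand of the epithelial form of Fgfr2, and Fgf1 and Fgf2 have a broad range of receptors.

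The assay was Visium for fixed tissue, in which probe pairs bound to each transcript are caught by barcoded spots 100 μm apart and counted as unique molecular identifiers (UMIs). A spot is a small area, often with more than 1 cell and cell type in it. Section 1 had 1700 control and 1341 Nf1Postn spots with 13562254 and 3462224 UMIs, and section 2 had 1778 and 1556 spots with 12122419 and 5984157 UMIs. The median depth of a spot was 6370 UMIs in control and 2642 in Nf1Postn. The sections shared 2711 spot barcodes out of 3045 and 3335, because both capture areas use the same grid, and these are not shared cells. A level is the share of a gene in all UMIs of a group of spots, scaled to 1000000 (CPM), with an exact Poisson 95% interval. A difference is a log2 ratio of CPM with an exact binomial 95% interval. Both kinds of interval hold counting error and no spread between mice. With 1 mouse per genotype there is no test between genotypes, and a gene was called lower or higher where it differed at least 2-fold the same way in both sections and had at least 50 UMIs in the groups compared. Probe pairs differ between genes, so levels are compared between places and genotypes and not between genes.

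Nf1 itself was measured at 87.8 CPM in section 1 and 79 CPM in section 2 of the control callus, against 65.6 CPM and 49.6 CPM in the Nf1Postn callus. Its log2 ratio was -0.42 in section 1 and -0.67 in section 2, lower in the mutant as labelled. The null allele of the mutant, deletion by Cre and the mix of tissues all run with the genotype, and their parts in this ratio were not tested.

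The receptors that set the callus regions apart, Fgfr3 and Fgfrl1, both lie on chromosome 5 (mm39), Fgfr3 at chr5:33879018-33894413 and Fgfrl1 at chr5:108840248-108854791. The promoters of Fgfr3 and Fgfrl1 are shown because these receptors were higher in the cartilage than elsewhere in both sections. Each run of 300 bases holds 250 bases before and 50 bases from a start that RefSeq lists on GRCm38.p6, at chr5:33721474-33721773 (plus strand) for Fgfr3 and chr5:108693979-108694278 (plus strand) for Fgfrl1. The same letters occur once each on mm39, at chr5:33878818-33879117 for Fgfr3, which spans the listed start of the gene, and at chr5:108841845-108842144 for Fgfrl1, inside the listed gene and downstream of its outermost start. Capitals mark the GC box GGGCGG on either strand (CCGCCC on the other) and the Sox-type motif ACAAAG.
Fgfr3: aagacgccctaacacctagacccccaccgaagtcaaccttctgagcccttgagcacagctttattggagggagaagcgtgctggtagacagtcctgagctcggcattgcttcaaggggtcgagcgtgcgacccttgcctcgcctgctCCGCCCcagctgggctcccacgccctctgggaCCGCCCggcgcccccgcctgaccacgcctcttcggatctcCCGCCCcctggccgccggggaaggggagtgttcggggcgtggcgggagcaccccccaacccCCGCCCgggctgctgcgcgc
Fgfrl1: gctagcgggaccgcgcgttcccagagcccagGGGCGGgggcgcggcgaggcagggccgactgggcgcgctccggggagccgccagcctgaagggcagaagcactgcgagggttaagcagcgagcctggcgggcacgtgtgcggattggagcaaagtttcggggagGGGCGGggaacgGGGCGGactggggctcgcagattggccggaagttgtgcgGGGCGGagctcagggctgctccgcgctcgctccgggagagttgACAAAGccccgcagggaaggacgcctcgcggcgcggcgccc
Both windows are rich in G and C, at 69.7% for Fgfr3 and 73.7% for Fgfrl1, and each holds 4 GC boxes. The Fgfrl1 window also holds 1 ACAAAG and the Fgfr3 window none. RefSeq lists a second Fgfr3 start, whose window at chr5:33722056-33722355 (GRCm38.p6) is not shown and holds 2 GC boxes at 73% G and C. Over all 32851 promoters of the same length, 35.7% hold a GC box and 18.7% hold ACAAAG on either strand, so these matches are common, and they describe letters and not sites. 7 of the 9 genes had an entry in the promoter table.

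The tables place Fgfr1 on chromosome 8, Fgfr2 on chromosome 7, Fgfr4 on chromosome 13, Fgf1 on chromosome 18, Fgf2 on chromosome 3, Fgf7 on chromosome 2 and Fgf18 on chromosome 11. Over all spots the receptors had 21589 UMIs (Fgfr1), 6616 (Fgfrl1), 4251 (Fgfr3), 3729 (Fgfr2) and 145 (Fgfr4), and the ligands had 1214 (Fgf7), 1207 (Fgf1), 660 (Fgf2) and 172 (Fgf18). Fgfr1 was found in 78.1% of spots and the other 8 genes in between 2.12% and 44.3%, so Fgfr4 and Fgf18 allow only coarse statements.

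Over the whole callus, the receptors Fgfr1, Fgfr2, Fgfr3 and Fgfrl1 were lower in Nf1Postn than in control in both sections, and Fgfr4 and the ligands Fgf1 and Fgf2 were higher in both. Fgfr3 had the largest ratio of the 9 genes, 3.88-fold lower, and was the only one past 2-fold in both sections. Fgfr3 stood at 178 CPM in section 1 and 121 CPM in section 2 of the control callus, and at 41.9 CPM and 37.3 CPM in the Nf1Postn callus. Both mutant values lie far below both control values, although the control sections also differ from each other. The log2 ratio was -1.96 (95% interval -2.11 to -1.80), with -2.09 in section 1 and -1.70 in section 2. It was -0.46, short of 2-fold, taken within regions with the control UMIs of each region as weights in both genotypes. Only the 11 regions with at least 20 spots of each genotype entered, 2911 of 3478 control spots, and neither cartilage-led region was among them. Weighted values within regions given below use the same 11 regions. Without the muscle-led and blood-led regions and regions 2 and 14 the ratio was -0.95 in section 2. A UMI of Fgfr3 was found in 45.5% of control and 10.4% of Nf1Postn spots, and in 12.4% and 4.05% once each spot was thinned to 1000 UMIs. In these data fewer cells of a type and less RNA per cell cannot be told apart.

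Fgfr2, the receptor of osteoprogenitors, stood at 141 CPM and 110.0 CPM in the control sections and 72.2 CPM and 39.8 CPM in the Nf1Postn sections. The mutant values lie below the control values, by -0.96 on the log2 scale in section 1 and -1.47 in section 2, just short of 2-fold in the first. Within regions the Fgfr2 ratio was 0.08, with -0.09 in section 1 and 0.18 in section 2, so the sections differ in direction. Without the muscle-led and blood-led regions and regions 2 and 14 the Fgfr2 ratio was -0.37. Fgfrl1, the receptor without a kinase, stood at 235 CPM and 184 CPM in control and 137 CPM and 121 CPM in Nf1Postn, a pooled log2 ratio of -0.73 (-0.82 to -0.64). Fgfr1 differed least among these receptors. It stood at 668 CPM and 655 CPM in control and 521 CPM and 464 CPM in Nf1Postn, a pooled log2 ratio of -0.45 (-0.50 to -0.40). Fgfr4 was sparse and stood at 3.24 CPM and 3.38 CPM in control and 5.2 CPM and 7.02 CPM in Nf1Postn. Within regions its ratio was -0.71, the opposite direction.

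The ligands did not follow the receptors. Fgf1 stood at 25.7 CPM and 32.9 CPM in control and 37.8 CPM and 54.8 CPM in Nf1Postn, a pooled log2 ratio of 0.74 (0.57 to 0.91). Fgf2 stood at 15.4 CPM and 16.7 CPM in control and 25.4 CPM and 26.9 CPM in Nf1Postn, a pooled log2 ratio of 0.72 (0.49 to 0.95). Neither was called higher, and of the 13186 genes tested 88.6% had a lower ratio than Fgf1 and 88.3% a lower ratio than Fgf2. With a mean of log2(CPM + 1) over spots, which runs with depth, the ratios were -0.17 for Fgf1 and -0.12 for Fgf2. Within regions that of Fgf1 was -0.69 and that of Fgf2 0.59, the latter with -0.28 in section 1 and 0.80 in section 2. Without the muscle-led and blood-led regions and regions 2 and 14 the Fgf1 ratio was 0.00 (-0.41 to 0.39). It had 0.37 in section 1 and -0.33 in section 2, whereas the pooled Fgf2 ratio was 1.45. Fgf7 stood at 34.8 CPM and 35.1 CPM in control and 38.7 CPM and 30.6 CPM in Nf1Postn, and its values overlap, with a pooled log2 ratio of -0.06 (-0.25 to 0.13). Fgf18 stood at 4.94 CPM and 5.77 CPM in control and 4.04 CPM and 3.51 CPM in Nf1Postn, with an interval of the log2 ratio from -1.10 to 0.02. The mutant value was lower in both sections, but the pooled interval reaches past 0.

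**Figure D1:**
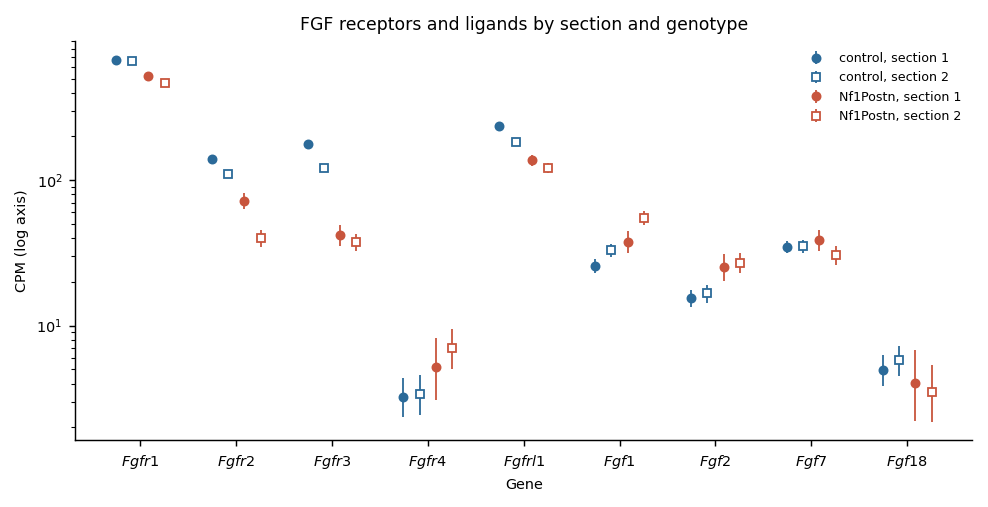
Level of the 9 genes in CPM (log axis) in the control and Nf1Postn callus of section 1 and section 2, with points for pooled spots and bars for exact Poisson 95% intervals. Fgfr3 shows the widest gap between the genotypes, from 178 and 121 CPM in control to 41.9 and 37.3 CPM in Nf1Postn, while the Fgf7 values overlap.

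Of the 13186 genes with enough UMIs, 1.52% were called lower and 5.35% higher over all spots, and of the 9 FGF genes 1 was called lower (Fgfr3) and 0 higher. The median log2 ratio was -0.45 over the 9 genes and -0.06 over all genes. The calluses differed in tissue. The summed level of the 14 cartilage markers was 50794 CPM and 32026 CPM in the control sections and 4864.8 CPM and 9127.3 CPM in the Nf1Postn sections, with none of the 14 at 0. The 12 muscle markers summed to 14893 CPM and 24198.5 CPM in control and 69021.5 CPM and 118908 CPM in Nf1Postn. Bone markers were lower in Nf1Postn, at 27066.1 CPM and 18978.9 CPM against 42203.1 CPM and 43580.1 CPM, and so were osteoclast markers, at 3612.4 CPM and 1610.8 CPM against 7629.0 CPM and 6382.9 CPM. Blood and marrow markers were higher, at 2401.9 CPM and 1836.2 CPM against 461.8 CPM and 455.6 CPM. These shifts run with the genotype, their part in the ratios over all spots was not tested, and the levels were taken apart by region.

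Spots were grouped into 15 expression regions without using the FGF genes or their pathway. Regions 10 and 12 were cartilage-led by their leading genes, region 10 with Col10a1 and Ihh, genes of maturing chondrocytes, and region 12 with Ucma, Scrg1 and Cnmd. By the labels of the study's supporting values, 93.4% of the section 1 control spots of region 10 were cartilage, whereas 56.1% of those of region 12 were ossifying perichondrium, so the most frequent label and the leading genes of region 12 differ. These shares are of all such spots of a region, with or without a label. Cartilage markers summed to 185189.7 CPM in region 10 and 136347.5 CPM in region 12, against 41936.0 CPM over the control callus. Bone markers were present in both, at 25736 CPM in region 10 and 40610.9 CPM in region 12, below the 42853.0 CPM over the control callus. Region 1 was led by the osteoclast genes Acp5, Mmp9 and Siglec15, and 89.9% of its 485 section 1 control spots carried the label woven bone. Region 4 was led by Gpnmb, Fbn2 and Ccl7, and 91.6% of its section 1 control spots were labelled ossifying perichondrium. Region 8 was led by Cfd, Cadm4 and Cxcl14, with 79.3% of these spots labelled progenitor. Region 9 was led by the embryonic muscle genes Tnnt2, Myh8 and Myh3, region 3 by hemoglobin genes, and regions 2 and 14 by muscle genes. Labels existed for 1344 control spots of section 1.

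Fgfr3 and Fgfrl1 were highest in the cartilage of the control callus. The cartilage-led regions took up 554 control spots, 15.9% of the callus, and only 19 spots, or 0.656%, of the Nf1Postn callus. In the control, Fgfr3 stood at 398 CPM in cartilage-led and 105 CPM in other spots of section 1, and at 388 CPM and 86.1 CPM in section 2. Both sections thus gave nearly the same cartilage level, and the pooled difference was 4.13-fold, a log2 ratio of 2.05 (1.96 to 2.14). Fgfrl1 stood at 473 CPM in cartilage-led and 157 CPM in other spots of section 1, and at 418 CPM and 153 CPM in section 2, 2.95-fold higher in cartilage when pooled. Fgf7 ran the other way. It stood at 17.8 CPM against 40.4 CPM in section 1 and 16.9 CPM against 37.5 CPM in section 2, 2.22-fold lower in cartilage.

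Of the 12447 genes tested, 12.6% were called lower and 1.63% higher in the cartilage-led regions, and of the 9 FGF genes 1 was called lower (Fgf7) and 2 higher (Fgfr3 and Fgfrl1). The other FGF genes were not called. The median log2 ratio was -0.38 over all genes and -0.18 over the 9 FGF genes. Of all genes, 14.2% had a lower ratio than Fgf7, 16.6% than Fgf1 and 38.6% than Fgfr1. Fgfr2 stood at 153 CPM in cartilage-led and 120 CPM in other control spots, and Fgfr1 at 484 CPM and 703 CPM. Fgf18, known from the perichondrium, stood at 2.51 CPM against 5.98 CPM, with 12 UMIs in the cartilage-led spots of section 1 and 0 in those of section 2. In the 19 cartilage-led Nf1Postn spots Fgfr3 stood at 157 CPM (98.3 to 238) from 22 UMIs, above the 37.2 CPM of the other Nf1Postn spots and below the 395 CPM of control cartilage-led spots. The sections differed, with 75.2 CPM from 5 UMIs in the 3 spots of section 1 and 230.7 CPM from 17 UMIs in the 16 spots of section 2. All 3 section 1 spots were of region 12, and 15 of the 16 section 2 spots were of region 10. Section and region thus cannot be told apart here. Of the 1888 control Fgfr3 UMIs, 1496 lay in region 12. The section 2 control level of region 10, given below, lies inside the section 2 mutant interval of 134.4 to 369.4 CPM. In the same 19 spots Fgfrl1 stood at 264 CPM (186 to 364). It had 120.3 CPM in section 1, below the 137.2 CPM of its other Nf1Postn spots, and 393.5 CPM in section 2, above the 117.9 CPM of the others. Its section 2 control level in region 10 lies below the section 2 mutant interval of 263.6 to 565.2 CPM.

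**Figure D2:**
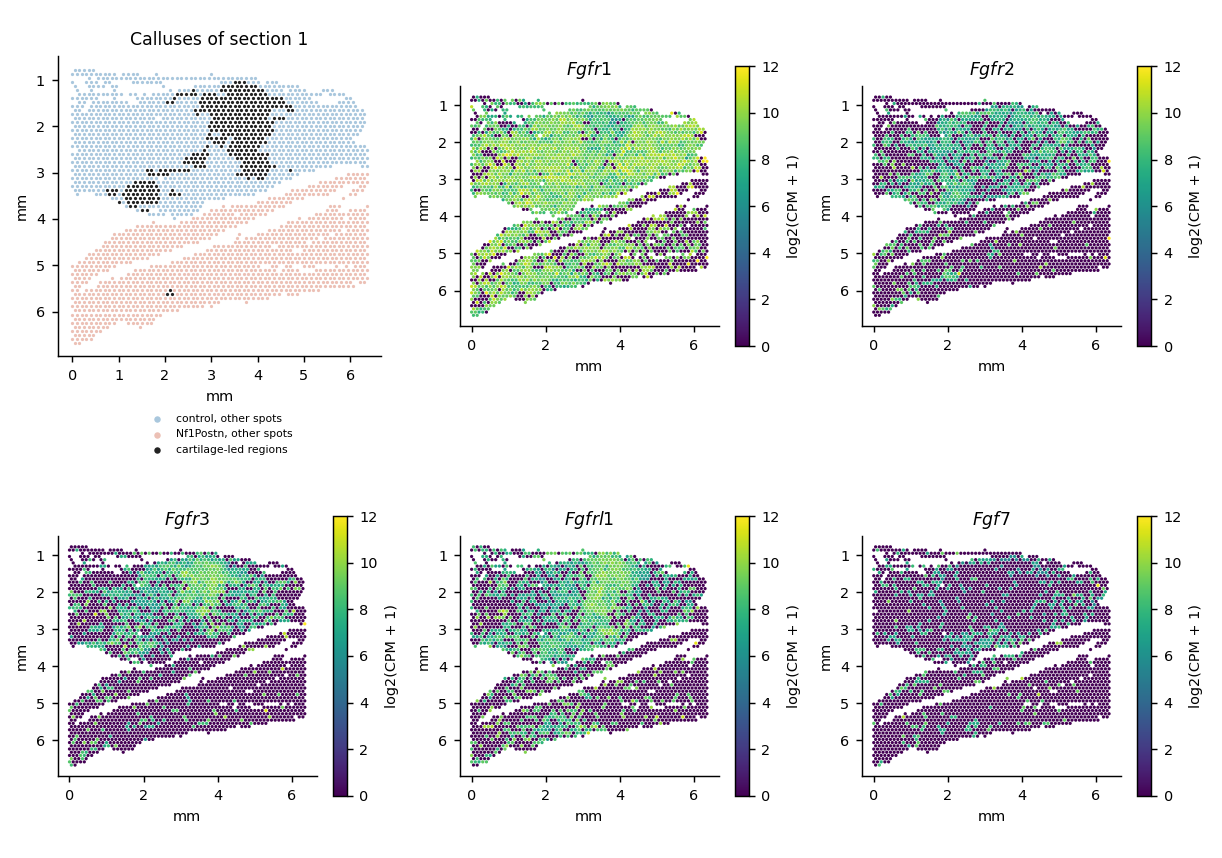
Section 1 drawn in mm, with the 2 calluses and the spots of the cartilage-led regions in the first panel and the level of 5 FGF genes per spot as log2(CPM + 1) in the others. Fgfr3 and Fgfrl1 are high over the block of cartilage-led spots in the control callus, of which the Nf1Postn callus has 3 in this section, while Fgfr1 covers most of the control callus.

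The 2 cartilage-led regions differed in their receptors. Fgfr3 stood at 425 CPM in section 1 and 418 CPM in section 2 of region 12, and at 318 CPM and 307 CPM in region 10. Region 12 was thus above the Col10a1-led region 10 in both sections, by 0.43 on the log2 scale (0.27 to 0.59). Fgfrl1 differed more, with 539 CPM and 479.9 CPM in region 12 against 283 CPM and 246 CPM in region 10, a log2 ratio of 0.94 (0.77 to 1.11). Fgfr1 ran the other way, lower in region 12 by -0.81 on the log2 scale (-0.93 to -0.69), with 405 CPM there and 709 CPM in region 10. Several marker lists also differed. Those of osteoclasts, cells that resorb cartilage and bone, summed to 1577.8 CPM in region 12 and 4918.8 CPM in region 10. The 4 markers of hypertrophic (maturing) cartilage summed to 1055.6 CPM and 3305.6 CPM. Bone markers ran the other way, at 40610.9 CPM and 25736.0 CPM. The part of these lists in the Fgfr1 difference was not tested.

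Ordered over the regions of the control callus, Fgfr3 was 423 CPM (402 to 445) in region 12, 314 CPM (284 to 347) in region 10 and 142 CPM (133 to 150) in region 1, whose intervals are apart. Regions 6 and 7 followed at 120 CPM (81.3 to 170) and 116 CPM (102 to 132), and the interval of region 6 includes the value of region 1. Region 3 had 87 CPM (67.3 to 111), region 4 had 66.2 CPM (59.9 to 72.9) and region 8 had 60.4 CPM (47.6 to 75.5), with neighbouring intervals that overlap. The lowest levels were 42 CPM in region 9 and 21.2 CPM in region 2, both led by muscle genes. Fgfrl1 put region 12 first at 522 CPM and region 10 next at 272 CPM, but region 1 stood last of the 12 regions drawn at 104 CPM (96.9 to 112).

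Region 1, led by osteoclast genes, was mostly labelled woven bone in section 1, and its bone markers summed to 63915.6 CPM in control. Leaving out region 15 with its few UMIs, Fgfr1 had its highest control level in region 1, at 857 CPM in section 1 and 922 CPM in section 2. Region 3 followed with 793 CPM, and region 2, led by muscle genes, had 251 CPM. Against all other control spots, region 1 was higher by 0.63 in log2 for Fgfr1 and lower by -1.29 for Fgfrl1 (-1.45 and -1.12 in the sections). Fgf18 was lower by -1.64 from 16 UMIs, of which 3 lay in section 2. Of the 12447 genes tested 4.97% were called lower and 1.63% higher in region 1, and of the 9 FGF genes 2 were called lower (Fgfrl1 and Fgf18) and 0 higher. Fgfr2 varied little over the skeletal regions, with 162 CPM in region 12, 145 CPM in region 1, 129.9 CPM in region 10 and 124 CPM in region 4, and 21.2 CPM in region 2.

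The ligands peaked elsewhere. Fgf7 stood at 56.7 CPM and 59 CPM in the sections of region 4 and at 60.4 CPM and 53.1 CPM in region 8, against 15.2 CPM and 18.2 CPM in region 12. Its 2 highest regions with over 50 Fgfr1 UMIs were thus those labelled mostly ossifying perichondrium and progenitor in section 1, and the sections overlap between these regions. Leaving out region 15, which had 7 Fgfr1 UMIs in control, Fgf1 was highest in regions 11, 3 and 8, at 57.4 CPM, 55.3 CPM and 52.5 CPM, and lowest in regions 4 and 12 at 15.6 CPM and 13.3 CPM. Fgf2 was 52.4 CPM in region 11, led by Retnla, Mpp3 and the muscle progenitor gene Myog, and 9.63 CPM in region 10. Fgf18 was 9.7 CPM in region 9, from 18 UMIs that all lay in section 2. It was 9.31 CPM in region 4, from 58 UMIs with 29 in each section, and 2.13 CPM in region 1. Fgfr4, known from muscle progenitors, was highest in region 11 at 15 CPM from 6 UMIs.

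**Figure D3:**
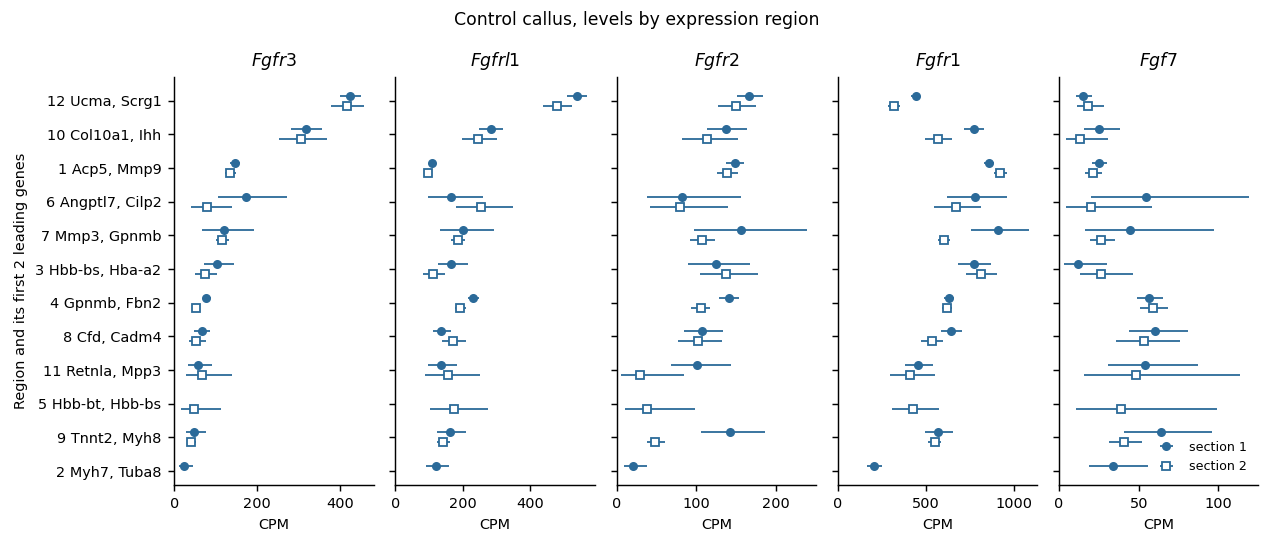
Control level in CPM by expression region for Fgfr3, Fgfrl1, Fgfr2, Fgfr1 and Fgf7, with filled points for section 1, open squares for section 2 and bars for exact Poisson 95% intervals. Regions are ordered by pooled Fgfr3, which goes from 423 CPM in region 12 to 21.2 CPM in region 2, while Fgfr1 is lower in region 12 than in region 10 and Fgf7 is highest in regions 4 and 8.

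The study's labels of section 1 control spots were a second grouping of the tissue. Fgfr3 was 429 CPM in spots labelled cartilage, 182 CPM in ossifying perichondrium, 142 CPM in woven bone and 66 CPM in progenitor spots. Fgfrl1 was 459.9 CPM, 308 CPM, 109 CPM and 154 CPM in the same order, so its lowest level lay in woven bone and that of Fgfr3 in progenitor. Fgf7 was highest in progenitor spots at 62.1 CPM and had 20.9 CPM in cartilage. Fgfr1 was 879 CPM in woven bone and 844 CPM in distal cortical bone, against 636.5 CPM in progenitor spots and 594 CPM in cartilage. Its lowest level by label was 575.5 CPM in ossifying perichondrium.

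SpatialTime is the study's measure of relative distance from the fracture plane, from 0 to 25, and existed for the section 1 control callus, so these values rest on 1 section. Fgfr3 went from 303 CPM in spots at 0 to 4 through 181 CPM, 137 CPM and 137 CPM to 116 CPM at 20 to 25, each step of 5 units, and was 2.6-fold higher nearest the plane than farthest from it. Fgfrl1 went from 470.0 CPM through 259 CPM, 124 CPM and 99.1 CPM to 109 CPM, 4.3-fold higher nearest the plane. Both receptors changed most over the first 3 bins and little after. Fgfr1 ran the opposite way, from 518 CPM through 665 CPM, 793 CPM and 799 CPM to 814 CPM. Fgf1 had 14.9 CPM and 15.7 CPM in the first bins and 30.9 CPM, 33.5 CPM and 30.5 CPM in the others, 2.05-fold higher farthest from the plane than nearest.

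Of the 9295 genes tested between the first and the last bin, 3.31% were lower and 5.76% higher farthest from the plane by at least 2-fold. Of the 7 FGF genes with enough UMIs, Fgfr3 and Fgfrl1 were lower and Fgf1 was higher. Fgfr2 showed no steady order along this axis, with 119 CPM nearest the plane, 173 CPM next and 144 CPM farthest. Fgf7 had 29 CPM nearest and 42.6 CPM farthest, with the lower bound of the log2 ratio at 0.07.

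Distance from the cartilage itself could be measured in both sections. Fgfr3 was 398 CPM in the cartilage-led spots of section 1, 167 CPM in spots up to 150 μm away and 89.3 CPM at 150 to 350 μm. In section 2 it was 388 CPM, 129.9 CPM and 96.9 CPM at the same distances. Fgfr3 was thus lower already in the first ring and stood at 75.5 CPM beyond 650 μm, pooled over sections. Fgfrl1 went down in smaller steps, from 457 CPM in the cartilage through 225 CPM, 168 CPM and 138 CPM to 115 CPM. Fgfr2 was highest in the first ring, at 187.0 CPM against 159.1 CPM in the cartilage of section 1, and 163.1 CPM against 140.1 CPM in section 2. The intervals of ring and cartilage overlapped in both sections, so a peak beside the cartilage is not settled. Once spots were thinned, the order was reversed. Fgfr2 was then found in 15.2% of cartilage spots in either section, against 14.4% and 11.6% in the first ring. Of all genes, 91.3% had a lower ratio than Fgfr2 in cartilage-led over other control spots. At 350 to 650 μm Fgfr2 stood at 96 CPM. Fgfr1 went from 484 CPM in the cartilage to 751 CPM at 350 to 650 μm and was lower again beyond that, at 672 CPM, as in each section.

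The ligands Fgf7, Fgf1 and Fgf18 were higher away from the cartilage. Most genes shared this direction, with a median log2 ratio of -0.38 in cartilage-led over other control spots. Fgf7 went from 17.6 CPM in the cartilage to 30.8 CPM in the first ring and 43.9 CPM beyond 650 μm. Fgf1 went from 15.5 CPM through 24.8 CPM to 42 CPM, and Fgf18 from 2.51 CPM through 2.72 CPM to 8.99 CPM over the same places. Fgf2 showed no steady order, with 14.4 CPM in the cartilage, 14.5 CPM in the first ring, 12.3 CPM at 150 to 350 μm and 21.5 CPM beyond 650 μm.

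**Figure D4:**
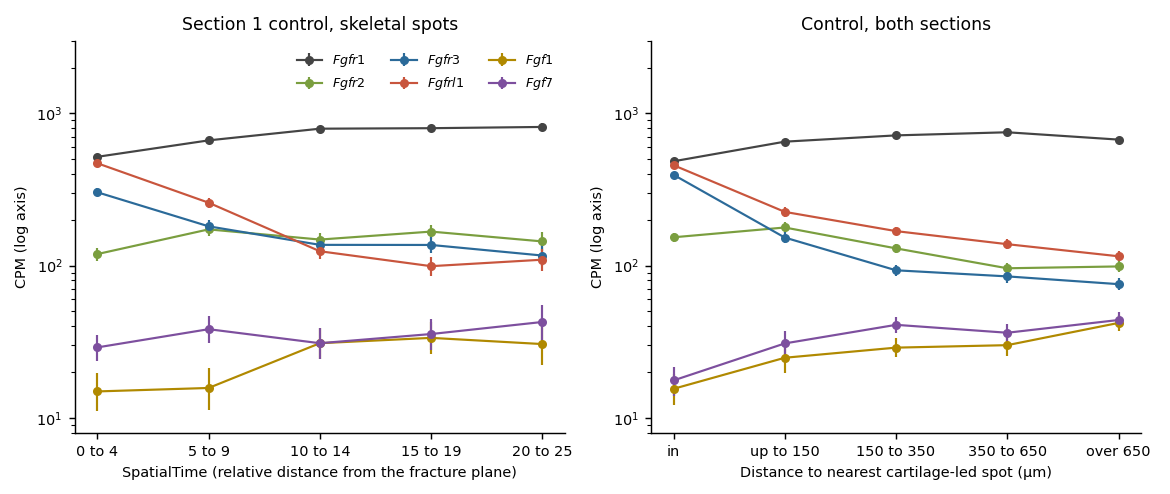
Control level in CPM (log axis) of Fgfr1, Fgfr2, Fgfr3, Fgfrl1, Fgf1 and Fgf7 by SpatialTime bin in section 1 (left) and by distance from the cartilage-led spots in both sections (right), with exact Poisson 95% intervals as bars. Fgfr3 and Fgfrl1 are highest nearest the fracture plane and in the cartilage, and Fgfr1 and Fgf1 are lowest there. Fgfr2 is highest in the first ring around the cartilage, with an interval that overlaps that of the cartilage.

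The genes with the region pattern most like those of Fgfr3 and Fgfrl1 included genes of cartilage matrix. Over 23 region and section values of the control callus, Fgfr3 had Pearson r of 0.94 with Hapln1, 0.93 with Trpv4, 0.92 with Col2a1, 0.91 with Clec3a and 0.90 with Clint1, among 8629 genes. For Fgfrl1 the nearest were C1qtnf3 at 0.84, Col9a2 at 0.83, Acan at 0.82, Col9a1 at 0.80 and Col9a3 at 0.79. Hapln1, Col2a1, Acan and the Col9 genes encode the collagens, the proteoglycan and the link protein of cartilage matrix. Fgf7 had its highest values with Nr2f2 at 0.91, Mgst1 at 0.87 and Nfib at 0.87, Fgfr2 with Pdia4 at 0.94, Fgfr1 with Atox1 at 0.87, Fgf1 with Abtb1 at 0.87 and Fgf2 with 2310061I04Rik at 0.91. Fgfr3 and Fgfrl1 had r of 0.64 with each other, and Fgfr3 and Fgf7 had -0.48. Points share their library and its depth, so these values describe and carry no test. Without region 15, which has few UMIs, Frzb led for Fgfr3 at 0.95 and Zim1 for Fgfrl1 at 0.85, with Hapln1 at 0.94 and Col9a2 at 0.83. Col2a1 was then no longer among the first 5 genes for Fgfr3. Acan, Col9a1 and Col9a3 were no longer among those for Fgfrl1, which were Zim1, Peg3, C1qtnf3, Col9a2 and Adk.

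The Nf1Postn callus was then set against control outside the cartilage. With the cartilage-led regions left out, Fgfr3 was still 2.57-fold lower, by -1.35 on the log2 scale in section 1 and -1.30 in section 2, against -2.09 and -1.70 over all spots. Fgfr2 had -1.28 pooled and -1.43 in section 2, and passed 2-fold in section 1 as well, though barely. Fgfrl1 went from -0.73 over all spots to -0.31 without cartilage, whereas Fgf2 hardly moved, from 0.72 to 0.70. Of the 12996 genes tested there, 1.3% were called lower and 4.5% higher, and of the 9 FGF genes 2 were called lower (Fgfr2 and Fgfr3) and 0 higher. The other tissues that differ between the calluses were then left out, with cartilage kept. Without the muscle-led and blood-led regions and regions 2 and 14, 2764 control and 497 Nf1Postn spots were left, and Fgfr3 had -1.86 and -0.95, Fgfr2 -0.32 and -0.34 and Fgf2 1.42 and 1.39 in the sections.

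Within single regions the Fgfr3 ratio was smaller than over the callus. It lay below 0 in 9 of 9 regions with at least 50 UMIs, from -1.57 to -0.04 with a median of -0.63, and its interval lay below 0 in 4 of them, regions 3, 4, 7 and 9. The ratio turned to 0.20 in region 3 after thinning and to 0.51 in region 8 at resolution 1.0. The summed level of the cartilage markers was lower in Nf1Postn in all of these regions but region 1, whether or not the Fgfr3 interval lay below 0. It was 18251.4 CPM in control and 8535.3 CPM in Nf1Postn in region 4, 5062.8 CPM and 1251.7 CPM in region 9, 8351.9 CPM and 2733.2 CPM in region 8 and 15528.2 CPM and 5826.4 CPM in region 6. In region 1 it was higher in Nf1Postn, at 30776.3 CPM against 19826.6 CPM, and the Fgfr3 interval there included 0. Their part in the Fgfr3 ratios was not tested.

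Region 9, led by genes of regenerating muscle, was the only one of the 11 regions compared in which receptors were called, with 170 control and 175 Nf1Postn spots. Fgfr3 stood at 47.3 CPM and 40.7 CPM in its control sections and 11.6 CPM and 15.3 CPM in its Nf1Postn sections, 2.95-fold lower from 78 and 21 UMIs. Fgfr2 stood at 142 CPM and 48.1 CPM in control and 39.6 CPM and 13.4 CPM in Nf1Postn, 3.15-fold lower from 123 and 31 UMIs. Within each section Nf1Postn was lower, but the section 1 mutant value of Fgfr2 comes close to the section 2 control value. Fgf7 was also lower there, with 64 CPM and 40.7 CPM in control against 30.3 CPM and 25.8 CPM, short of 2-fold in section 2, and at 0.13 after thinning. After thinning to 1000 UMIs the Fgfr3 log2 ratio was -0.26 in place of -1.56, and with regions made at the other resolutions that of Fgfr2 was -0.88 and -0.87 in place of -1.66. Of 8403 genes 2.09% were called lower and 0.595% higher in region 9, and of 7 FGF genes 2 were called lower and 0 higher. Marker levels there differed too. Muscle markers summed to 67873.5 CPM in control and 131936.7 CPM in Nf1Postn, bone markers to 27745.1 CPM and 11954.8 CPM, and osteoclast markers to 2271.2 CPM and 801.9 CPM. The part of these lists in the ratios was not tested.

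In other regions 2 ligands were called higher in Nf1Postn. In region 8, led by Cfd and Cadm4, Fgf2 stood at 15.1 CPM and 27.4 CPM in control and 64.4 CPM and 63.1 CPM in Nf1Postn, 3.13-fold higher from 26 and 50 UMIs. Both mutant sections lie above both control sections. Of 7309 genes 0.794% were called lower and 0.575% higher in region 8, and of 7 FGF genes 0 were called lower and 1 higher (Fgf2). At resolution 0.3 its log2 ratio was 0.73 in place of 1.64. The adipose markers there summed to 1746.1 CPM in control and 938.3 CPM in Nf1Postn, and the tendon markers to 2419.6 CPM and 1137.1 CPM. The nerve markers of region 8 were higher in Nf1Postn, at 355.7 CPM against 167.8 CPM. In region 3, led by hemoglobin genes, Fgf7 stood at 11.9 CPM and 26.1 CPM in control and 47.2 CPM and 54.3 CPM in Nf1Postn, 2.55-fold higher from 15 and 68 UMIs. Of 7162 genes 0.154% were called lower and 0.81% higher in region 3, and of 7 FGF genes 0 were called lower and 1 higher (Fgf7). At resolution 0.3 its log2 ratio was 0.51 in place of 1.35. Blood markers there summed to 761.6 CPM in control and 3237.5 CPM in Nf1Postn. Bone markers of region 3 summed to 53490.4 CPM and 38421.7 CPM, and osteoclast markers to 9906.7 CPM and 4773.8 CPM. The part of these marker lists in the ratios of either region was not tested.

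In region 1 Fgf1 was called lower from only 4 Nf1Postn UMIs against 273 in control, a log2 ratio of -1.45 with an interval from -3.33 to -0.07. Of 10230 genes 4.16% were called lower and 0.987% higher in region 1, and of 7 FGF genes 1 was called lower (Fgf1) and 0 higher. Fgfr2, in contrast, was higher in region 1 of Nf1Postn by 0.44 (0.04 to 0.82), with -0.07 in section 1 and 0.65 in section 2. Pooled over sections, Fgfrl1 was close to control within regions, below 0 in 9 of 10 with a median of -0.09. Regions 4 and 5, at -0.46 and -0.77, had intervals below 0. By section, only regions 4, 5 and 6 were below 0 in both. Region 2 was above 0 in both, at 0.95 and 0.59, although its pooled value was -0.05. Fgfr1, also pooled, was below 0 in 6 regions and above 0 in 4, from -0.48 to 0.33. With control UMIs of the regions as weights its ratio was 0.00.

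**Figure D5:**
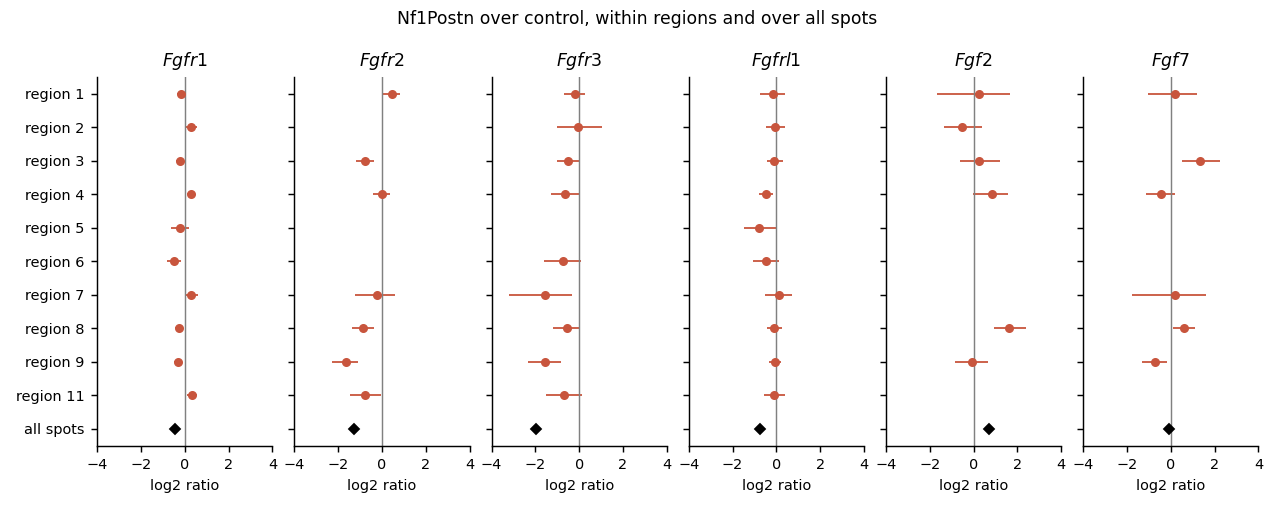
Log2 ratio of CPM, Nf1Postn over control and pooled over sections, within regions with at least 50 UMIs (points) and over all spots (black diamonds), with exact binomial 95% intervals as bars. Fgfr3 lies at or below 0 in every region shown but closer to 0 than its all-spot value of -1.96, while Fgf2 in region 8 and Fgf7 in region 3 lie above 0.

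Few other genes of the pathway were called between the genotypes, although the lists differed in direction. Of 57 listed genes, 55 were in the tables and 36 had enough UMIs, of which 1 was called lower and 1 higher, beside 1.52% and 5.35% of all genes, and their median log2 ratio was -0.05. Of 14 other secreted ligands only Fgf16 had enough UMIs, at 0.96. Among co-receptors and binding proteins, 13 were tested with a median of -0.47, and the heparan sulfate proteoglycan Sdc3 was called lower. That median lies below the lower quartile of all genes, -0.37. Sdc3 stood at 364.5 CPM and 312.9 CPM in control and 126.2 CPM and 107.8 CPM in Nf1Postn, a log2 ratio of -1.57.

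Of the 4 intracellular homologous factors, which do not bind FGF receptors, 2 were tested and Fgf13 was called higher. Fgf13 stood at 4.57 CPM and 5.44 CPM in control and 12.7 CPM and 17.7 CPM in Nf1Postn, a log2 ratio of 1.67. None of 10 adaptors was called, with a median of -0.05. None of the 10 tested feedback genes and targets was called either, with a median of 0.21. They ran from -0.52 for Spred1 to 0.72 for Spry2, both inhibitors of Ras signaling. Between these lay the transcription factors Etv5 at 0.49 and Etv4 at 0.32, the ERK phosphatase Dusp6 at 0.32 and the inhibitors Spry1 at 0.37, Spred2 at 0.09, Spry4 at 0.07, Spred3 at -0.10 and Il17rd at -0.19. These are pooled values, and some differed in direction between section 1 and section 2. Etv4 had 1.06 and -0.27, Spred3 had 0.32 and -0.42, and Spry4 had 0.17 and -0.05.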

How the data were processed

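Probe pairs of the mouse set for fixed tissue were hybridized by the authors to 2 sections of 1 block. The submitters' processing notes name mm39 and Space Ranger 1.3.0, and the paper's methods name Partek Flow. The authors deposited 1 table of UMI counts per section, by gene and spot and not normalized, handled like estimated counts because 10 entries are not whole. These were rounded where spots were thinned to 1000 UMIs. The authors also deposited a genotype label and a position per spot, used as they are. By the paper's methods the calluses were told apart by how each was placed in the block, and how single spots were assigned is not given in the sources used here. The image scale factors were not used. An entry that names no gene was left out (6.81e-05% of UMIs in section 1 and 3.76e-05% in section 2), and 5 of 6380 spots had no genotype and entered no comparison. Cluster labels and SpatialTime of 1344 section 1 control spots came from the paper's supporting values and served as groupings of spots.

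Regions were made from 16842 genes with a UMI in at least 0.3% of spots, without the FGF genes and pathway lists. Counts were taken as log2(CPM + 1), centered per section, reduced to 20 principal components, linked to 15 neighbors with shared-neighbor weights and grouped with Leiden at resolution 0.5 (leidenalg 0.10.2, igraph 0.11.9, scikit-learn 1.9.0, Python 3.11.15). Leading genes are those of at least 500 UMIs with the largest CPM ratio over the remaining spots, and a region was cartilage-, muscle- or blood-led with at least 3 listed markers among its first 10 genes. Regions 2 and 14, with muscle genes in front, fell short of that rule. Genotypes were compared in regions with at least 20 spots of each, which cartilage-led regions 10 and 12 lacked in Nf1Postn (15 and 4 spots). CPM were pooled over spots, with exact 95% intervals from scipy 1.17.1. All 9 genes are named, pathway genes are counted by list and named where called at least 2-fold, except that Fgf16 and all tested feedback genes and targets were named after their values were seen. Likeness names the 5 genes with the highest Pearson r for a member with at least 500 UMIs. The FGF genes, the lists and the rules were chosen with earlier results of these data known. Alternatives were a section left out, TMM factors (edgeR 4.0.16 in R 4.3.3), a mean of log2(CPM + 1), thinning, a depth minimum, other resolutions, all genes in the clustering, the supporting labels, tissue left out and region weights. The calling steps were tested on simulated data. Control spots with under 1000 UMIs were 3.68% and Nf1Postn spots 11.3%, so depth limits low genes more in the mutant.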

Additional observations from a re-analysis of the deposited data

Results flagged for a closer look

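2 genes went in opposite directions between the genotypes in different regions. Fgfr1 was higher in Nf1Postn in both sections of regions 4 and 11 and lower in both sections of regions 3, 6 and 9, and the gap between region 11 (0.33) and region 6 (-0.48) was 0.81 on the log2 scale. Fgf7 was higher in both sections of regions 3 and 8 and lower in both sections of region 9, and the gap between region 3 (1.35) and region 9 (-0.74) was 2.09. With regions made at resolution 1.0, Fgf7 had -0.37 in region 8 and 0.13 in region 9, and Fgfr1 had 0.20 in region 9. These differences between regions were not tested, since each genotype is 1 mouse.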

How the results depend on the processing

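No paired analysis was possible because the replicate numbers mark sections that each hold both calluses, and no result comes from a test. Many comparisons are therefore also given by section. Over all spots, in cartilage and along both distances Fgfr3 kept its direction in every alternative computed. Values of 26 of 75 results changed sign in 41 of 422 alternatives, none of them a call, among them Fgf1, Fgf2, Fgfr2 and Fgfr4 over all spots. The calls in region 1 and those outside the cartilage-led regions were not among the 75 results. The control level of Fgfr3 of 151 CPM was 121 to 178 with a section left out. 1 FGF gene was called over all spots, Fgfr3. The count was 4 with a mean of log2(CPM + 1) and 3 after thinning to 1000 UMIs. TMM factors gave 2 and moved ratios by -0.28 in section 1 and -0.01 in section 2. Within regions weighted by control UMIs, without the cartilage-led ones, the count was 0, and it was 1 to 3 with a section left out. With the cartilage-led regions left out, an alternative chosen after seeing the data, it was 2, and without the muscle-led and blood-led regions and regions 2 and 14, likewise chosen later, it was 1, namely Fgf2 in place of Fgfr3. The Fgfr3 log2 ratio in cartilage of 2.05 was 3.44 with a mean of log2(CPM + 1), 1.84 after thinning, 1.77 at resolution 0.3, 1.80 with all genes clustered, 1.45 with the supporting labels, 1.88 against regions 1 and 4 only (chosen later), and 1.92 to 2.17 with a section left out. In region 9 the Fgfr3 ratio of -1.56 was -0.26 after thinning, and -2.02 to -1.41 with a section left out. Along SpatialTime the Fgfr3 ratio of -1.38 was -0.92 between spots under 10 and from 10 up and -2.32 with a mean of log2(CPM + 1). Beyond 650 μm the Fgfr3 ratio to cartilage of -2.39 was -2.61 to -2.13 with a section left out. The 2 pathway genes called became 7 with a lower filter, 8 at 1.5-fold, and 3 to 4 with a section left out. Fgf2 in region 8 ranged from 0.73 to 2.09 and Fgf7 in region 3 from 0.51 to 1.99 over their alternatives. The causes of these shifts were not tested. Of the 422 values, 260 stayed within the interval of the reported value, or for counts within 1.5 times, and 162 did not.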
